A study of Homo sapiens with 18 samples.

Results

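Cells of the gastrointestinal stromal tumor line GIST-T1 that were given imatinib and JQ1 together for 24 h were compared with cells given imatinib alone for 24 h. The comparison rests on 6 of the 18 RNA-seq libraries of the series, 3 in each group, chosen by the treatment and time in their labels. All 6 libraries come from cells that received imatinib at 500 nM, so the groups differ in the presence of JQ1, also at 500 nM. The other 12 libraries were 3 each of DMSO, for which the labels give no time, imatinib for 6 h, JQ1 for 6 h and JQ1 for 24 h. The labels describe the line as dependent on KIT, and every result concerns this 1 line. Expression is given as FPKM, a count of fragments per kilobase of transcript. Per the labels' protocols, RNA was set to cell number and ERCC spike-in RNA was added. Over the 18 libraries the spike-ins summed to 6505 to 6948, while gene totals ran from 286566 to 2463610. The values are therefore on a scale tied to the spike-ins and are not scaled to the total of each library. Of 23621 genes, 12771 had at least 1 FPKM in at least 3 libraries and were tested. Nothing in the labels states that replicates were cultured separately. The p-values therefore rest on variation among libraries that could be purely technical. Sequencing depth in reads is unknown.

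KIT is a receptor tyrosine kinase whose activating mutations drive most gastrointestinal stromal tumors, and imatinib blocks its kinase activity and so the ERK and AKT signaling below it. The tumors keep features of interstitial cells of Cajal, the pacemaker cells of the gut, with transcription factors such as ETV1, FOXF1 and HAND1 that act with KIT in these cells. JQ1 displaces BET proteins from acetylated chromatin. These proteins help to recruit the elongation kinase P-TEFb, and genes with large active enhancers are known to depend on them. The question is what BET inhibition adds to KIT inhibition.

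Most genes were lower when JQ1 was added, and the shift of the whole transcriptome is described first because it bears on every other value. A gene is called changed here where its adjusted p in limma was below 0.05 and its log2 change, on log2(FPKM + 1), was at least 1 in size. Of the tested genes, 1858 fell (14.5%) and 54 rose (0.423%), and the median log2 change over the tested set was -0.50. The fallen genes had a median change of -1.28, and 199 of them fell by a log2 of 2 or more. The 3 combination libraries lay entirely above or below the 3 imatinib libraries in 7976 genes (62.5%), below in 7628 and above in 348. The median tested gene stood at 7.43 ± 0.366 FPKM with imatinib and 4.58 ± 1.36 FPKM with the combination (mean ± SD, n = 3). Of all 23621 genes, tested or not, 11431 ± 93.1 against 10157 ± 447 reached 1 FPKM.

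Summed expression was less clearly apart. Total FPKM was 453262, 518817 and 468644 in the imatinib libraries and 286566, 499857 and 355558 in the combination libraries. The groups overlap, because combination replicate 2 lies above 2 of the 3 imatinib libraries (ratio of means 0.793, exact two-sided permutation p = 0.3, where 0.1 is the smallest p that 3 against 3 libraries allow). The ERCC spike-ins summed to 6608 ± 32.0 with the combination and 6674 ± 47.7 with imatinib. Near-equal spike-in sums are a property of this scale and not a separate check. Without the rows of MIR1244, a small RNA gene, the totals did not overlap, at 367961 or less against 369259 or more (ratio of means 0.739, exact two-sided permutation p = 0.1, the smallest possible). In bulk RNA, less RNA per cell and fewer living cells per counted cell cannot be told apart.

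Because of this shift, each change was also read after a scale factor per library (the median ratio of its genes to their geometric means) had been divided out. This ratio rescaling moved the median change to 0.03. Rescaled in this way, 713 genes fell (5.58%) and 303 rose (2.37%). Ratio-rescaled values are printed beside those on the deposited scale for the main results and for many of the genes and groups described. Without combination replicate 2, the combination library with the highest total, 2882 genes fell and 28 rose on the deposited scale.

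**Figure D1:**
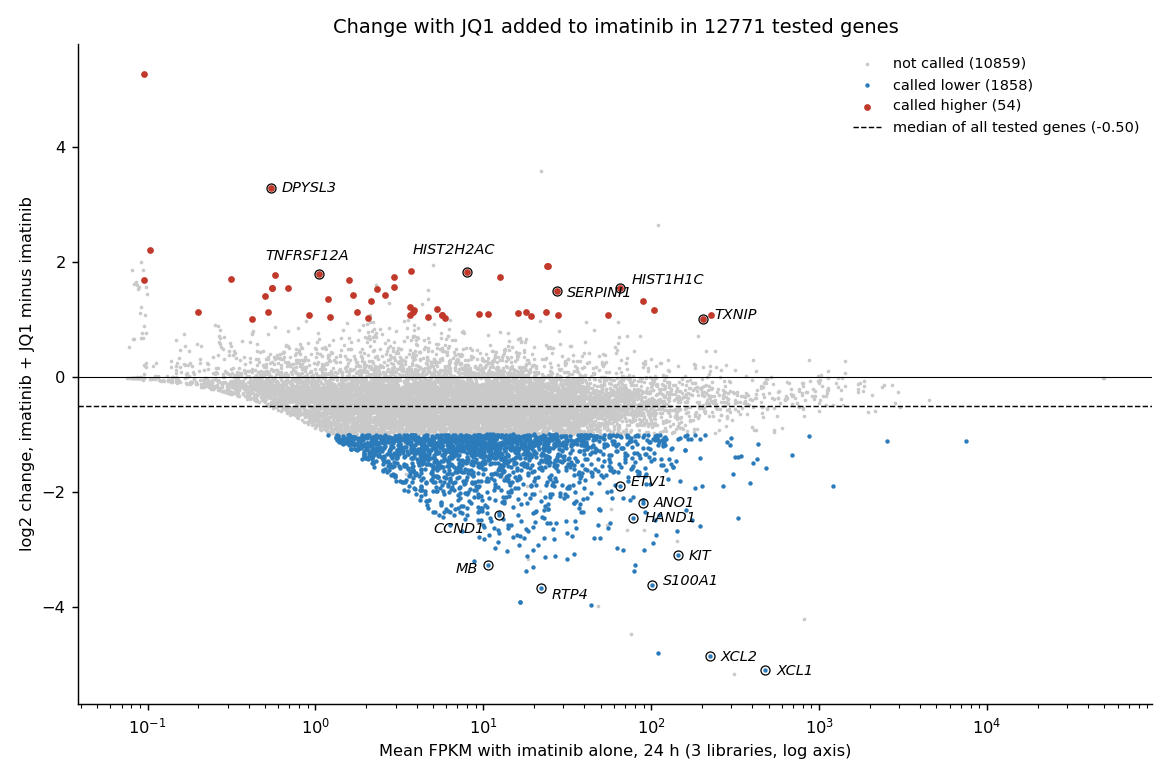
Log2 change between imatinib plus JQ1 and imatinib alone (vertical axis) against the mean FPKM with imatinib (horizontal log axis) for each tested gene, with calls in color and 16 described genes circled. The cloud is centered below 0 at the dashed median of -0.50, with 1858 genes called lower and 54 called higher.

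KIT itself fell further when JQ1 was added. Its level was 136, 155 and 142 FPKM in the 3 imatinib libraries and 12.8, 19.5 and 16.5 FPKM in the 3 combination libraries. The groups were far apart, and the highest combination library lay well below the lowest imatinib library. The means were 145 ± 9.58 and 16.3 ± 3.39 FPKM (SD, n = 3), 8.88-fold apart, with a log2 change of -3.09 ± 0.17 (SE, adjusted p = 6.96e-12) and of -2.44 after ratio rescaling. A steeper log2 fall than that of KIT was seen in 0.18% of genes. DMSO cells held 644 FPKM and cells with JQ1 alone for 24 h 43.1 FPKM, so the combination had the lowest KIT level of these 4 groups.

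Genes of the gastrointestinal stromal tumor lineage fell with KIT. Of 19 genes listed for this lineage and the KIT enhancer, all tested, 15 fell (78.9%) and 0 rose, beside 14.5% and 0.423% of all tested genes. Their median log2 change was -1.59 against -0.50 for all tested genes. After ratio rescaling 9 still fell, 1 rose, and the median was -0.97, beside 5.58%, 2.37% and 0.03 for all tested genes. GPR20, an orphan receptor known as a surface marker of these tumors, went from 26, 26 and 25.8 to 2.86, 4.48 and 2.76 FPKM (-2.65 ± 0.18). HAND1, a basic helix-loop-helix factor of the lineage, read 77.7, 79.8 and 77 FPKM with imatinib and 10.4, 19.8 and 11.6 FPKM with both drugs. All 3 combination libraries lay below all 3 imatinib libraries, and the log2 change was -2.46 ± 0.20 (adjusted p = 1.03e-09).

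ANO1, the calcium-activated chloride channel used to diagnose the tumor, was at 88.9, 92.7 and 86.3 FPKM with imatinib and 15.1, 24.4 and 17.5 FPKM with the combination. That is a log2 change of -2.20 ± 0.18 (-1.54 ratio rescaled, adjusted p = 2.02e-09). ETV1, the ETS factor of the lineage, read 60.7, 71 and 64.1 and then 13.1, 21.1 and 16.7 FPKM (-1.90 ± 0.18, adjusted p = 1.02e-08). The forkhead factor FOXF1 read 142, 153 and 142 FPKM with imatinib and 61.5, 112 and 72 FPKM with JQ1 added. Its libraries did not overlap either, but the log2 change of -0.87 ± 0.20 missed the fold threshold and was -0.18 after ratio rescaling.

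**Figure D2:**
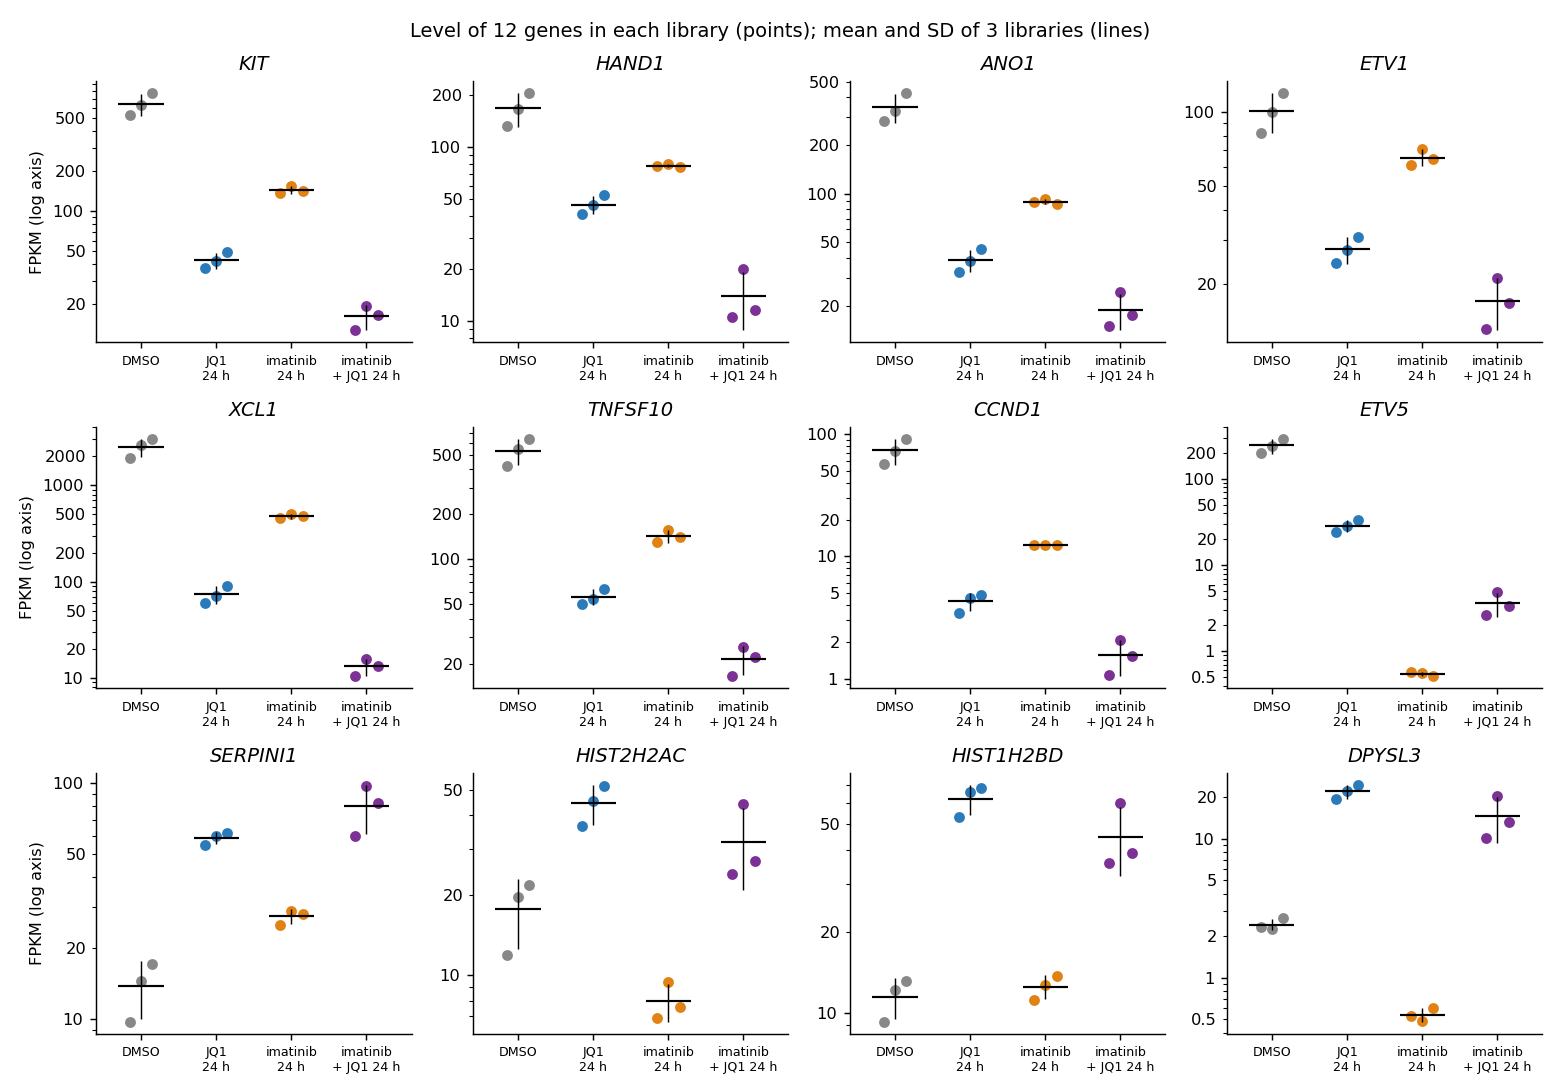
FPKM on log axes for 12 genes in each library (points) of DMSO, JQ1 24 h, imatinib 24 h and imatinib plus JQ1 24 h, with the mean and SD of 3 libraries as lines. KIT, HAND1, ANO1 and ETV1 are lowest with both drugs, while ETV5, SERPINI1, DPYSL3 and the histone genes HIST2H2AC and HIST1H2BD are above imatinib alone.

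Receptor tyrosine kinases were reduced beyond KIT. Of 32 listed receptor genes, 22 were tested, 11 fell (50%) and 0 rose, with a median log2 change of -1.03. KIT and PDGFRA are among the 11 and were counted with the lineage genes too. Of all tested genes 14.5% fell, with a median of -0.50. After ratio rescaling 9 receptor genes fell and 1 rose (median -0.62), beside 5.58% and 2.37% of all tested genes. The collagen receptor DDR1 went from 20.1, 20.0 and 19.6 to 1.93, 3.24 and 2.19 FPKM (-2.62 ± 0.17), and ERBB3, a partner of other ERBB receptors, from 22.4, 25.5 and 25.2 to 3.15, 5.45 and 4.18 FPKM (-2.29 ± 0.18). PDGFRA, the close relative of KIT that is mutated in some of these tumors, fell from 37.7, 42.6 and 38.8 to 7.6, 12.4 and 9.69 FPKM, a log2 change of -1.92 ± 0.17 (-1.30 ratio rescaled). In all 4 of these receptors the highest combination library lay below the lowest imatinib library.

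The output genes of the ERK pathway moved in both directions. Of 18 tested, 5 fell and 2 rose, with a median of -0.48 beside -0.50 for all genes. After ratio rescaling 2 fell and 2 rose. CCND1, the cyclin that carries growth signals into the cell cycle, held 12.4, 12.4 and 12.3 FPKM with imatinib and 1.07, 2.07 and 1.51 FPKM with the combination. It fell 7.97-fold in FPKM, with a log2 change of -2.41 ± 0.18 (adjusted p = 2.77e-10). SPRY4, a feedback inhibitor of receptor signaling, was already low with imatinib at 2.15, 2.51 and 2.4 FPKM, and read 0.287, 0.361 and 0.236 FPKM with both drugs (-1.37 ± 0.17). EPHA4 and SPRY2 fell too, at log2 changes of -1.36 and -1.33, but at -0.76 and -0.71 they were not called after ratio rescaling. DUSP6, the ERK phosphatase, read 1.01, 1 and 1.05 FPKM and 0.417, 0.416 and 0.471 FPKM, 2.35-fold lower with no overlap. Its log2 change of -0.49 ± 0.19 missed the threshold on this compressed scale, lay at the median of all genes and was -0.28 after ratio rescaling. With a pseudocount of 0.1 the change of DUSP6 was -1.07 and called. At that setting 8 ERK outputs fell, beside 3355 of all tested genes, whose median was -0.63.

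In the other direction, ETV5, an ETS factor induced by ERK, read 0.575, 0.556 and 0.516 FPKM with imatinib and 2.67, 4.93 and 3.32 FPKM with JQ1 added. Each combination library lay above each imatinib library, and ETV5 rose by 1.55 ± 0.18 on the log2 scale (adjusted p = 3.09e-07). It stayed far below its DMSO mean of 246 FPKM. EGR1, an immediate early factor, rose from 0.546, 0.471 and 0.551 to 1.86, 3.19 and 2.12 FPKM (1.14 ± 0.18). Among 16 tested immediate early genes 2 rose and 0 fell, the other being IER5 at 1.02 ± 0.21. The median of these genes was -0.23 and turned to 0.36 after ratio rescaling. The rises numbered 5 after ratio rescaling and 0 without combination replicate 2, when 1 ERK output rose. MYC, which BET inhibitors lower in many cancers, read 2.17, 2.02 and 2.07 FPKM and then 0.689, 0.738 and 0.611 FPKM. The groups did not overlap, with means 3.07-fold apart. The log2 change of -0.88 ± 0.13 missed the threshold on log2(FPKM + 1), which compresses low values, and was -0.615 after ratio rescaling. With a pseudocount of 0.1, when more genes fell in general, the change of MYC was -1.49 and called.

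Cell cycle genes as a whole did not follow CCND1. Of 41 DNA replication and E2F target genes 0 were called in either direction, and their log2 changes lay between -0.95 and 0.69 with a median of -0.25. After ratio rescaling the median turned to 0.41 and 3 rose. Of 34 mitosis genes 1 fell, the mitotic transcription factor FOXM1 at -1.05 ± 0.20 (-0.41 ratio rescaled). Their median of -0.13 turned to 0.51 after ratio rescaling, with 5 rises and 0 falls. Besides CCND1, 1 of 19 tested D cyclins, CDKs and CDK inhibitors fell, the pocket protein gene RBL2 (-1.09 ± 0.17, -0.47 ratio rescaled). That list had a median of -0.55, which turned to 0.09 after ratio rescaling, with 4 rises and 1 fall. Of 30 ribosome biogenesis and MYC target genes 3 fell, with a median of -0.53, and 0 were called after ratio rescaling (median 0.05). Of 45 cytosolic ribosomal protein genes 0 were called, with a median of -0.31 (0.39 after ratio rescaling). Without combination replicate 1 the mitosis, cyclin and CDK, and ribosome biogenesis lists had 0, 1 and 0 falls. Without replicate 2 the replication, cyclin and CDK, and ribosome biogenesis lists had 2, 4 and 7, and without replicate 3 the mitosis list had 0.

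Among 15 tested genes of the BCL2 family, which sets the threshold of apoptosis, 4 fell (26.7%) and 0 rose, where 14.5% of all tested genes fell. The median of the family was -0.58, near the -0.50 of all genes. After ratio rescaling it was 0.05, near the 0.03 of all genes, and 1 fell and 1 rose. BCL2L1, which encodes the survival protein BCL-XL, went from 21.4, 22.5 and 22.7 to 5.53, 10.8 and 6.75 FPKM (-1.47 ± 0.19, -0.86 ratio rescaled and then not called). BCL2, another survival gene, went from 2.51, 3.1 and 3 to 0.365, 0.678 and 0.426 FPKM (-1.38 ± 0.14). The other falls were of genes for proteins that promote death, BAD at -1.08 ± 0.20 and BBC3 at -1.004 ± 0.17, and neither was called after ratio rescaling, at -0.42 and -0.44. Without combination replicate 1 and without replicate 3 the list had 2 falls. BCL2L11, which encodes the death activator BIM, read 4.61, 5.07 and 4.97 FPKM with imatinib and 3.43, 5.75 and 4.22 FPKM with both drugs. Its groups overlapped and its log2 change was -0.13 ± 0.17 (adjusted p = 0.522, 0.47 ratio rescaled).

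Targets of FOXO factors, which enter the nucleus when AKT is inactive, moved in both directions. Of 23 tested, 6 fell and 2 rose, with a median log2 change of -0.71 beside -0.50 for all genes, and 3 fell and 2 rose after ratio rescaling (median -0.09). TNFSF10, which encodes the death ligand TRAIL, fell from 129.9, 156 and 140.0 to 16.6, 25.8 and 22.2 FPKM (-2.69 ± 0.18), and the PI3K inhibitor gene PIK3IP1 from 4.66, 5.3 and 5.32 to 0.867, 1.59 and 1.15 FPKM (-1.48 ± 0.14). YPEL3, a gene linked to growth arrest, had a log2 change of -1.52 (-0.86 ratio rescaled, not called). The rises were of TXNIP, an inhibitor of thioredoxin and glucose uptake, from 194, 215 and 202 to 303, 578 and 395 FPKM (1.01 ± 0.19), and of the stress gene GADD45A (1.12 ± 0.21). Without combination replicate 2 the list had 0 rises, and without imatinib replicate 1 it had 1. Of 49 genes (0.384% of those tested) that had risen in the separate libraries of imatinib for 6 h against DMSO, 18 fell here (36.7%) and 0 rose. Their median was -0.84, and 11 fell and 1 rose after ratio rescaling (median -0.27). Of all tested genes 14.5% fell, or 5.58% after ratio rescaling.

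The 12 steepest falls among named genes included immune and stress genes. XCL1, which encodes the chemokine lymphotactin, had 452, 508 and 476 FPKM with imatinib and 10.5, 15.7 and 13.4 FPKM with JQ1 added. That is 36.3-fold lower, a log2 change of -5.09 ± 0.19 (adjusted p = 4.53e-14, -4.46 ratio rescaled). Its near-identical neighbor XCL2 went from 214, 238 and 217 to 5.62, 9.18 and 5.92 FPKM (-4.85 ± 0.19), and reads may have been split between this pair. The interferon-inducible chaperone gene RTP4 fell from 19.3, 23.6 and 23.4 to 0.581, 1.08 and 0.777 FPKM (-3.68 ± 0.16). TMEM173, which encodes the DNA-sensing adaptor STING, fell from 23.4, 23 and 23.9 to 1.42, 2.25 and 1.76 FPKM (-3.13 ± 0.16).

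Interferon response genes were lower more widely. Of 30 listed, 27 were tested, 11 fell (40.7%) and 0 rose, with a median log2 change of -0.75. Of all tested genes 14.5% fell, with a median of -0.50. After ratio rescaling 5 fell (median -0.56), beside 5.58% of all tested genes (median 0.03). IFIT3 (-2.09 ± 0.18), IFIT2 (-1.82 ± 0.15) and IFI35 (-1.76 ± 0.15) fell as RTP4 did, and the first of them stood at 13.1, 13.3 and 13 FPKM with imatinib and 1.58, 3.3 and 2.28 FPKM with the combination. GBP1, an interferon-induced GTPase, fell from 1.2, 1.68 and 1.37 to 0.0874, 0.133 and 0.0921 FPKM (-1.12 ± 0.14). Of 10 tested NF-kB and cytokine genes 1 fell, NFKB1 at -1.34 ± 0.16 (-0.83 ratio rescaled), and without combination replicate 2 the count was 4.

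The other large falls had varied roles. S100A1, a calcium-binding protein of muscle, fell from 96.4, 106 and 99.5 to 5.83, 10.1 and 6.38 FPKM (-3.62 ± 0.21). MB, which encodes the oxygen store myoglobin, went from 9.91, 10.9 and 11.2 to 0.158, 0.204 and 0.247 FPKM (-3.28 ± 0.17), a level far under 1 FPKM in all 3 combination libraries. NUPR1, a stress-induced chromatin protein, and the adhesion receptor gene GPR56 fell with log2 changes of -3.27 and -3.38. The log2 change was -3.37 for HSD11B1, which activates cortisol, -3.12 for the lipase gene MGLL, -3.31 for the NODAL antagonist LEFTY2 and -3.16 for the Wnt antagonist DKK4. The 12 largest falls all kept their call after ratio rescaling, between -4.46 and -2.67.

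Some sterol, contractile and matrix genes fell as well, beside 14.5% of all tested genes. Of 22 tested cholesterol synthesis genes 6 fell (27.3%) and 0 rose, with a median of -0.71 beside -0.50 for all genes. After ratio rescaling 2 fell and the median was -0.05, beside 0.03 for all genes. The sterol demethylase gene CYP51A1 went from 76.9, 88.7 and 83.7 to 18.5, 32.4 and 25.5 FPKM (-1.70 ± 0.18). SREBF2 and SREBF1, the transcription factors that drive the pathway, read -1.22 ± 0.19 and -1.17 ± 0.19, or -0.59 and -0.54 ratio rescaled, and were then not called. The count of sterol genes was 10 without combination replicate 2. Of 13 tested smooth muscle and contractile genes 5 fell (38.5%, median -0.73), led by ACTA2, smooth muscle actin, at -1.53 ± 0.20 (-0.90 ratio rescaled). After ratio rescaling 1 fell and 1 rose, with a median of -0.64. Of 23 tested matrix and integrin genes 5 fell (21.7%, median -0.66), with the protease inhibitor gene TIMP1 at -1.88 ± 0.21 and the matrix protein gene TGFBI at -1.52 ± 0.13. After ratio rescaling 3 of the matrix and integrin genes fell and 1 rose, with a median of -0.01. The count of falls was 3 without combination replicate 1 and 8 without replicate 2.

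Against the general fall, replication-dependent histone genes rose. Of 72 such symbols 45 were tested, 22 rose (48.9%) and 0 fell, so that histone genes made up 22 of the 54 rises. Their median log2 change was 0.89 (33 rises and a median of 1.56 after ratio rescaling). Of all tested genes 0.423% rose, or 2.37% after ratio rescaling. By class, 9 of 14 H2B genes, 6 of 13 H2A genes, 3 of 8 H3 genes, 3 of 8 H4 genes and 1 of 2 H1 genes rose. In 42 of the 45 the change was above 0, and in 34 all 3 combination libraries lay above all 3 imatinib libraries. Over all 12771 tested genes these counts were 1288 and 348. These mRNAs usually end without a poly(A) tail and the libraries were prepared from poly(A) RNA, so the values cover only the part that this preparation captures, and whether that part changed was not tested. Histone genes are near-identical copies, so reads may be shared between them. The DNA replication genes, which are active in the phase when histones are made, had 0 rises in 41 beside this.

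The promoters of 3 histone genes that rose are shown with that of KIT, because KIT is the drug target and the histone genes form the main group that rose. Each line is the RefSeq sequence of GRCh38.p14 over 300 bases around the annotated start, most of them upstream, on the strand of the gene, with TATAAA, the core of the TATA box, and its reverse complement TTTATA in capitals. The windows are chr4:54657707-54658006 on the plus strand for KIT, chr1:149886668-149886967 on the plus strand for HIST2H2AC, chr6:27132746-27133045 on the minus strand for HIST1H2BJ and chr6:26056421-26056720 on the minus strand for HIST1H1C.
KIT: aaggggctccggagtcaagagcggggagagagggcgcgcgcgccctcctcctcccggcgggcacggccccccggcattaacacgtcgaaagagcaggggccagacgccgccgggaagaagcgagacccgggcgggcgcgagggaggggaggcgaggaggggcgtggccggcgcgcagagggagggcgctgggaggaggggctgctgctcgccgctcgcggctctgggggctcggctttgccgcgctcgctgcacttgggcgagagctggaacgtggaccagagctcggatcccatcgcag
HIST2H2AC: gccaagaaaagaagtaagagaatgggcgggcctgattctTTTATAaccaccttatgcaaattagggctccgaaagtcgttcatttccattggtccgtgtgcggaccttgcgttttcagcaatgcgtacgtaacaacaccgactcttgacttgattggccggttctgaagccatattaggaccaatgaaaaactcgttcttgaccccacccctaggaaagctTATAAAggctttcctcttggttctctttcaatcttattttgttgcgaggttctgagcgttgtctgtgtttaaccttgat
HIST1H2BJ: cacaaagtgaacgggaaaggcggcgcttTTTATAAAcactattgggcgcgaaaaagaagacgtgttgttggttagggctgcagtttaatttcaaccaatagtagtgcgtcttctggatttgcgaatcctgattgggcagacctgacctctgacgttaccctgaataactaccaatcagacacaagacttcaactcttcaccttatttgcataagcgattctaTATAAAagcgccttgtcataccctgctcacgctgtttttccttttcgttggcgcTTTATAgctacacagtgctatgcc
HIST1H1C: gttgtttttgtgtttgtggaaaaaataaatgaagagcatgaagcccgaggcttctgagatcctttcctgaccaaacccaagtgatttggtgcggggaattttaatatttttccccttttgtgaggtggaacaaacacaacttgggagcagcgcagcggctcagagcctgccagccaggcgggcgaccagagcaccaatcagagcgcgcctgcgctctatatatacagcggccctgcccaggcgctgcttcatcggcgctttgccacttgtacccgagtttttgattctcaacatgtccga

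TATAAA lay 29 bases before the start of HIST2H2AC and 28 bases before that of HIST1H2BJ, and no match was found in the KIT and HIST1H1C windows. Of the 22 histone genes that rose, 19 matched the promoter table, with 22 windows, and 16 windows (72.7%) held TATAAA on either strand. Over all 35116 windows in the table the share was 11.5%. It was 64.3% in the 42 windows of the 45 tested histone genes, called or not, so the share describes histone genes in general. The palindrome TGACGTCA, the CREB site, was in 4 of the 22 windows (18.2%) against 16.7% of the windows of tested histone genes and 1.85% of all windows. The E-box CACGTG, the AP-1 site TGACTCA, the forkhead site GTAAACA and the ETS site CCGGAAGT were searched on both strands too and were in 0 of the 22, against 7.26%, 4.95%, 3.42% and 4.14% of all windows. In the 42 windows of tested histone genes their shares were 0%, 0%, 0% and 2.38%, so their absence is not particular to the genes that rose. The motifs could overlap one another, and a match describes the letters only.

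The values of single histone genes were alike. HIST2H2AC read 6.93, 9.44 and 7.58 FPKM with imatinib and 24.1, 44 and 27.1 FPKM with the combination (1.83 ± 0.22, adjusted p = 5.38e-07). The linker histone gene HIST1H1C, the most abundant of the 12 largest rises, had 62.6, 67.6 and 66 FPKM and then 145, 268 and 187 FPKM (1.55 ± 0.19, adjusted p = 6.03e-07). HIST1H2BJ went from 1.41, 1.41 and 1.92 to 5.58, 9.54 and 7.03 FPKM (1.68 ± 0.19). In each of these genes combination replicate 2 was the highest library and all 3 combination libraries lay above the imatinib libraries. HIST1H2BD (1.74 ± 0.18), HIST1H2BC (1.84 ± 0.21), HIST1H2AE (1.73 ± 0.18), HIST1H2BO (1.57 ± 0.19) and HIST1H2BG (1.53 ± 0.22) rose too. The pair HIST2H2AA3 and HIST2H2AA4, at 1.93 each, share almost all of their sequence and may be 1 signal.

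Markers of the response to BET inhibitors, a list known from other cells, rose mainly through their histone members: 12 of 18 tested rose and 1 fell, with a median log2 change of 1.14 (13 rises, 1 fall and a median of 1.83 after ratio rescaling). All 9 histone members, counted above, rose. Of the other 9 members 3 rose and 1 fell, with a median of 0.26 (0.90 after ratio rescaling). SERPINI1, which encodes neuroserpin, read 25.2, 28.8 and 27.9 FPKM with imatinib and 59.9, 97.3 and 82.6 FPKM with both drugs. Its groups lay apart by more than their spread, with a rise of 1.49 ± 0.19 on the log2 scale (adjusted p = 8.61e-07). HEXIM1, the inhibitor of P-TEFb that BET inhibitors induce, read 5.29, 5.7 and 5.73 FPKM and 7.64, 15.1 and 8.96 FPKM. No library overlapped, but its log2 change of 0.77 ± 0.20 missed the fold threshold on the deposited scale and passed it after ratio rescaling (1.44). The 1 fall was of ZMYND8, a reader of histone marks, from 23.4, 26.4 and 24.9 to 2.66, 4.86 and 3.17 FPKM (-2.54 ± 0.18).

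The BET proteins and the P-TEFb machinery themselves had the median change of all genes. Of 23 tested genes 2 fell, HEXIM2 at -1.23 ± 0.19 and the elongation factor subunit NELFCD at -1.11 ± 0.20, with a median of -0.50. After ratio rescaling 0 fell, 1 rose and the median was 0.11. There was 1 fall without combination replicate 1 and there were 4 without replicate 2. BRD2, a BET protein gene, read 35.1, 38.8 and 36.7 FPKM with imatinib and 24.4, 49.1 and 31.8 FPKM with the combination. The groups overlapped, at a log2 change of -0.12 ± 0.20, which was 0.56 after ratio rescaling. Of 34 Mediator and acetyltransferase genes 3 fell, and of 39 histone-modifying enzymes 7 fell, with medians of -0.52 and -0.64. After ratio rescaling 0 and 1 fell with medians of 0.09 and -0.01, and without combination replicate 2 the counts were 8 and 13.

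The largest rise among named genes was outside the histone genes. DPYSL3, a cytoskeletal protein of growing neurons, read 0.529, 0.486 and 0.607 FPKM with imatinib and 10.1, 20.4 and 13.3 FPKM with JQ1 added. It was below 1 FPKM in each imatinib library and rose 27-fold in FPKM, by 3.29 ± 0.17 on the log2 scale (adjusted p = 2.48e-12). TNFRSF12A, the receptor of the cytokine TWEAK, rose from 0.949, 1.12 and 1.1 to 4.41, 9.33 and 5.38 FPKM (1.79 ± 0.21). Among 15 tested neuronal-type genes 3 rose and 4 fell, the other rises being of the synaptic gene NPTX2 (1.41 ± 0.19) and the tubulin gene TUBB3 (1.09 ± 0.21). The falls included the kinesin gene KIF5C (-1.92 ± 0.18), and after ratio rescaling 5 rose and 1 fell. The median of these genes was -0.22 and turned to 0.24. Without combination replicate 2, TXNIP, IER5, TUBB3, GADD45A and EGR1 were at 0.76, 0.74, 0.80, 0.85 and 0.97 and no longer called.

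**Figure D3:**
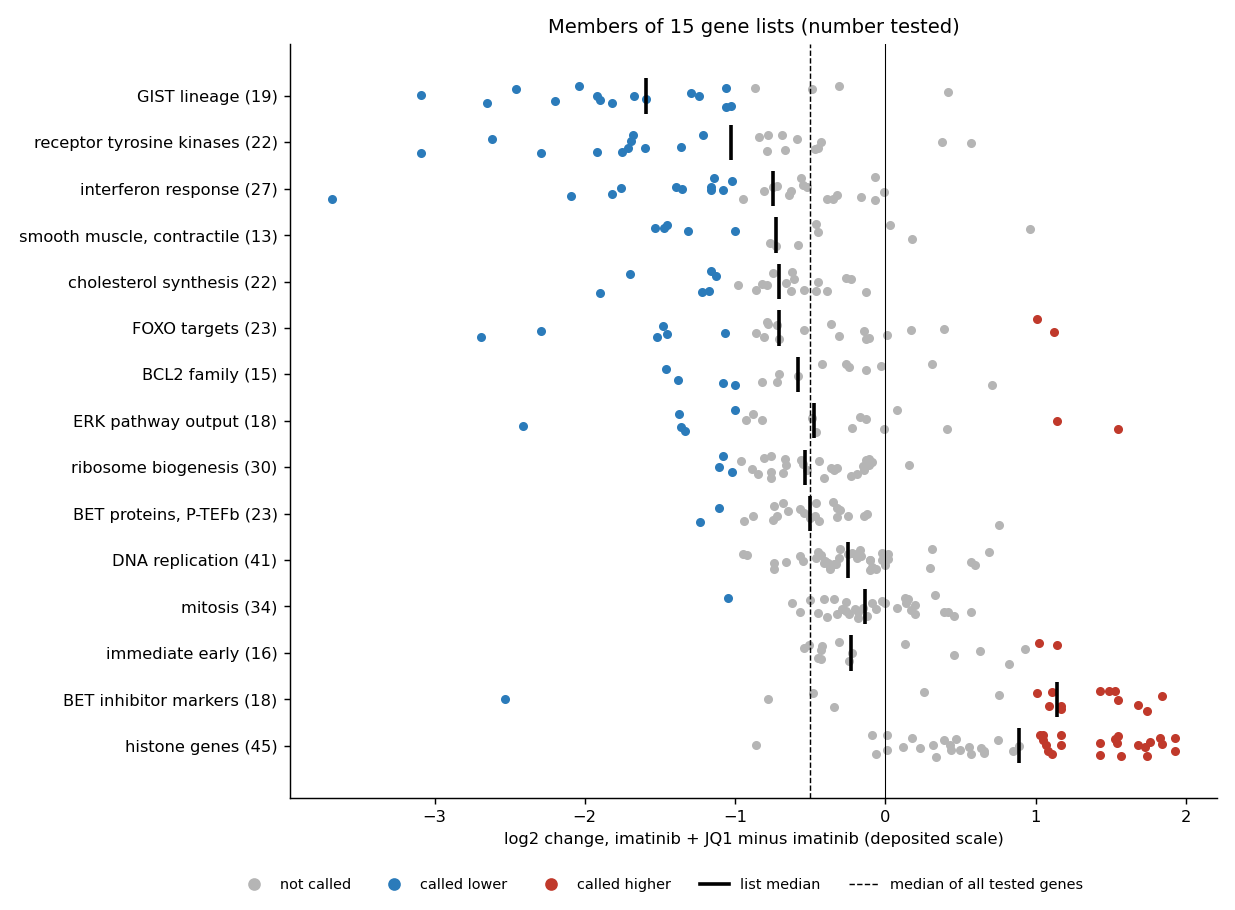
Log2 change of every tested member of 15 gene lists (points), with each list's median as a bar, 0 as a solid line and the median of all tested genes as a dashed line. The lineage list has a median of -1.59 and the histone list one of 0.89, while the DNA replication and mitosis members lie around -0.25 and -0.13.

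The effect of JQ1 with imatinib present was then set beside its effect without imatinib, JQ1 for 24 h against DMSO, which shares no library with it. Across the 12771 genes the log2 changes had Pearson r = 0.383 and Spearman rho = 0.379 (0.432 and 0.432 after ratio rescaling), a description over genes that share their libraries. Of the 54 rises here 22 were also rises with JQ1 alone, 40.7% of the one list and 43.1% of the 51 genes in the other. Of the 1858 falls 1638 were also falls with JQ1 alone, 88.2% of the one list and 17% of the 9621 genes in the other. JQ1 alone raised 0.399% and lowered 75.3% of all tested genes. Of the 22 histone genes that rose with imatinib present, 15 rose with JQ1 alone, and all 15 fallen lineage genes fell with JQ1 alone. Among the 82 genes (0.642% of those tested) that had risen in the separate libraries of JQ1 for 6 h against DMSO, 27 rose here and 2 fell, with a median of 0.68, beside 0.423% and 14.5% of all tested genes. The rises numbered 49 after ratio rescaling and 16 without combination replicate 2. The histone gene HIST1H1C had a mean of 88 FPKM in DMSO, 304 with JQ1, 65.4 with imatinib and 200.1 with both.

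The difference between these effects, the interaction in the same fit, was above 0 and called in 5974 genes (46.8%) and below 0 and called in 119 genes (0.932%), with a median of 0.95. The median log2 change with JQ1 was -1.49 without imatinib and -0.50 with it. The median interaction was 0.01 after ratio rescaling, with 623 genes called above 0 (4.88%) and 745 below (5.83%), so the number and sign of these calls depend on the scale. For KIT the interaction was 0.77 ± 0.25 (adjusted p = 0.00786, not called) and -0.28 after ratio rescaling. The log2 change of KIT with JQ1 was -3.86 without imatinib and -3.09 with it. The interaction was -0.55 ± 0.27 for SERPINI1 and -0.24 ± 0.27 for HIST1H1C, neither called, but after ratio rescaling both were called below 0, at -1.42 and -1.23.

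In some genes the interaction was below 0. FBXO32, a ubiquitin ligase gene of the FOXO program, had means of 0.942 FPKM in DMSO, 2.33 with JQ1, 10.7 with imatinib and 3.35 with both. Its interaction was -2.23 ± 0.20 (adjusted p = 1.04e-08), while its fall with imatinib present, -1.45 ± 0.14, was -0.92 and not called after ratio rescaling. The same order, high with imatinib alone and lower with both drugs, held for MB (0.762, 0.291, 10.7 and 0.203 FPKM in the same groups, interaction -2.84 ± 0.24) and for REEP1, which encodes a protein that shapes the endoplasmic reticulum (13.3, 20.1, 51.4 and 15 FPKM, -2.32 ± 0.26). All 3 interactions stayed below -2 after ratio rescaling, at -2.48, -3.48 and -3.22. FBXO32 and MB were below 1 FPKM in DMSO, so on log2(FPKM + 1) no fall with JQ1 alone could reach the threshold there, and MB was lower with JQ1 alone than in DMSO. The imatinib libraries enter both the level and the difference, so the pair is a description.

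Genes with an interaction above 0 included outputs of ERK. ETV5 had means of 246 FPKM in DMSO, 28.9 with JQ1, 0.549 with imatinib and 3.64 with both drugs. JQ1 lowered ETV5 in the absence of imatinib (-3.04) and raised it in its presence (1.55), with an interaction of 4.59 ± 0.26 (adjusted p = 8.35e-12, 3.67 ratio rescaled). TNFRSF12A (-2.06 without and 1.79 with imatinib) and EGR1 (-2.03 and 1.14) showed the same change of sign, with interactions of 3.85 ± 0.30 and 3.17 ± 0.25. With imatinib alone TNFRSF12A and EGR1 were at 1.056 and 0.522 FPKM. From such levels, and from that of ETV5, log2(FPKM + 1) could not fall as far as it did with JQ1 alone. Part of these interactions was therefore set by the scale.

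**Figure D4:**
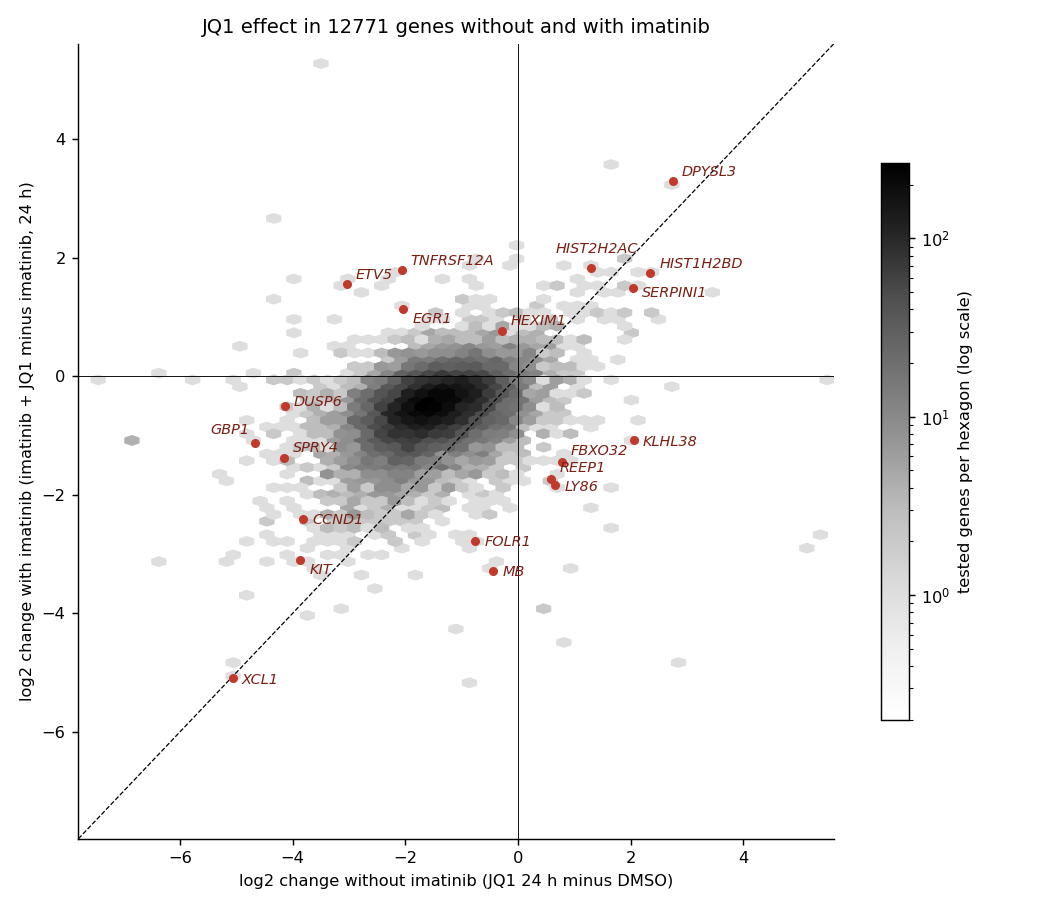
Log2 change with JQ1 when imatinib is present (vertical axis) against the change when it is absent (horizontal axis), as counts of tested genes per hexagon, with 20 described genes as points and the line of equal change dashed. ETV5, TNFRSF12A and EGR1 lie in the upper left, and KLHL38, FBXO32, REEP1 and LY86 in the lower right.

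Of the markers of other cell types, most endothelial, leukocyte, glial and epithelial genes stayed low, but the other lists did not. The neuronal-type genes summed to 153 to 159 FPKM with imatinib and 82.7 to 155 FPKM with the combination. The smooth muscle and contractile genes summed to 312 to 344 and 193 to 360 FPKM. Of the 10 endothelial markers all 10 were below 0.5 FPKM in all 6 libraries, as were 8 of 10 leukocyte, 7 of 8 glial and 6 of 10 epithelial markers. The epithelial markers summed to 44.9 to 47.5 FPKM with imatinib and 17.0 to 29.8 FPKM with the combination, and of 3 tested 1 fell, the keratin gene KRT18 (-1.07 ± 0.20, -0.41 ratio rescaled), which was not called without combination replicate 1. The leukocyte markers summed to 4.72 to 5.21 and 1.43 to 2.22 FPKM, and their part in the lower interferon genes was not tested. Of the markers of the line's own tissue, KIT, ANO1, ETV1, PDGFRA and GPR20 were present in each of the 6 libraries. CD34 had means of 484 FPKM with imatinib and 165 FPKM with the combination. PRKCQ, also such a marker, was low, with means of 4.88 and 0.85 FPKM.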

How the data were processed

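Libraries of GIST-T1 cells were made from poly(A) RNA with a stranded kit and sequenced from 1 end for 75 bases, according to the protocols, per the labels. STAR, Cufflinks and the hg19 build are named in the submitters' processing notes, with no versions. The deposited table gives the authors' FPKM, 1 column for each library, with 23621 gene rows and 92 ERCC rows. How the authors normalized these values is not given in the labels or the table, but the near-equal ERCC sums show a scale tied to the spike-ins. Counts and depth are not known, so precision rests on 3 libraries a group.

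From these values log2(FPKM + 1) was fitted with limma 3.58.1 (R 4.3.3), 1 mean for each of the 6 groups, 12 residual degrees of freedom and an intensity trend. Tests were two-sided, adjusted by Benjamini-Hochberg over 12771 genes. The added 1 understates the fold change of low genes. The FPKM fold given beside some genes is the ratio of group means. The script was tested on simulated data. Alternatives changed the pseudocount, filter, scale, weights, block, groups fitted and libraries.

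Named genes were a fixed set, the 12 largest calls in each direction whose libraries did not overlap and whose higher group averaged 5 FPKM or more, up to 4 called members per list and direction, and up to 6 interaction calls in each direction. Clone names, small RNAs and the 20 tested names turned into dates entered the counts only. A few genes that the rule picks are not reported here. The comparison, the genes and the 31 lists were chosen with earlier results of these data known. A column of the JQ1 24 h group whose number matched no title was used as an unnumbered library. Promoters were matched by symbol or older symbol to a RefSeq table. Only 77% of tested genes had one, under 80%, so no comparison of promoters between all called and other genes is given. The promoter shares in the report are for histone genes, of which 84.4% of those tested and 86.4% of those called had one.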

Additional observations from a re-analysis of the deposited data

Results flagged for a closer look

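The effect of JQ1 differed with and without imatinib, by the interaction in the limma fit over 18 libraries, in the 17 genes given here. They are those called among the fixed genes and the up to 6 interaction calls in each direction. Of all 110 named genes the interaction was called below 0 in 11 and above 0 in 44. Values are the log2 change with imatinib minus that without it, on the deposited scale. Of the 17, those below 0 were KLHL38 at -3.13 ± 0.26, MB at -2.84 ± 0.24, LY86 at -2.50 ± 0.23, REEP1 at -2.32 ± 0.26, FBXO32 at -2.23 ± 0.20 and FOLR1 at -2.02 ± 0.24, with adjusted p between 3.03e-09 and 3.74e-07. LY86, a gene of innate immunity, had means of 0.627 FPKM in DMSO, 1.56 with JQ1, 7.78 with imatinib and 1.48 with both. KLHL38 read 2.04, 11.6, 14.1 and 6.38 FPKM in the same groups, and the folate receptor gene FOLR1 2.03, 0.808, 9.42 and 0.522 FPKM. LY86, MB and FBXO32 were below 1 FPKM in DMSO, where a fall is compressed on log2(FPKM + 1). All 6 remained called below 0 after ratio rescaling, between -3.64 and -2.48.

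Those above 0 were ETV5 at 4.59 ± 0.26, TNFRSF12A at 3.85 ± 0.30, DUSP6 at 3.64 ± 0.26, GBP1 at 3.54 ± 0.20, CTSL1P8 at 3.54 ± 0.23, CHODL at 3.45 ± 0.24, EGR1 at 3.17 ± 0.25 and SPRY4 at 2.78 ± 0.24. All 8 also stayed called after ratio rescaling, between 1.14 and 3.67. In DUSP6 the mean was 242 FPKM in DMSO, 12.6 with JQ1, 1.02 with imatinib and 0.435 with both, a gene that at 1.02 FPKM could fall by only about 1 on log2(FPKM + 1). CHODL, a membrane lectin gene, read 826, 28, 23.8 and 8.73 FPKM in the same groups. GBP1, SPRY4 and CTSL1P8 were also low with imatinib, at 1.415, 2.353 and 3.849 FPKM. From there log2(FPKM + 1) could not fall as far as it did with JQ1 alone (-4.66, -4.15 and -5.19). The same limit held for ETV5, TNFRSF12A, EGR1 and CHODL, at 0.549, 1.056, 0.522 and 23.8 FPKM with imatinib. Their changes with JQ1 alone were -3.04, -2.06, -2.03 and -4.82. Part of the interaction of all 8 genes was therefore set by the scale. CCND1 at 1.40 ± 0.25, HEXIM1 at 1.05 ± 0.28 and BRD2 at 1.03 ± 0.29 were called on the deposited scale, where the median of all genes was 0.95. They were not called after ratio rescaling, at 0.15, 0.14 and 0.02.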

How the results depend on the processing

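The 1858 falls and 54 rises were 3355 and 103 with a pseudocount of 0.1, 713 and 303 after ratio rescaling, 1428 and 161 with 1 total for all libraries, and 1121 and 182 with that total taken without the MIR1244 rows, which are 18.5% to 26.4% of the totals of the 6 libraries. Array weights gave 2971 and 26, but their estimate did not converge and gave the combination libraries weights of at most 0.16. Leaving out 1 library gave 1357 to 2882 falls and 28 to 64 rises, with 2882 and 28 without combination replicate 2. The median of all genes, -0.50, was -0.11 with no filter and 0.03 after ratio rescaling. KIT stayed called under every alternative run, between -3.29 and -2.44. Same-numbered libraries did not deviate together (correlations of deviations from the group means -0.159, -0.045 and -0.079). Libraries of unlike number had -0.103 to 0.168. Whether same-numbered libraries shared a culture or batch is not stated and was not tested. With the replicate block there were 1861 falls and 55 rises, KIT was at -3.09, and no call of the described genes changed. The ratio of total FPKM was 0.739 without MIR1244 and 0.669 to 0.891 when 1 library was left out, an alternative chosen after seeing the data. Directions turned for some genes that were not called. BCL2L11 and BRD2 were at 0.47 and 0.56 after ratio rescaling, 0.19 and 0.24 with 1 total, and 0.28 and 0.34 without MIR1244. They ranged from -0.29 to 0.013 and from -0.39 to 0.10 when 1 library was left out. Interactions turned with the scale, after ratio rescaling, with 1 total and with that total without MIR1244: KIT to -0.28, -0.70 and -0.39, FOXF1 to -0.18, -0.61 and -0.29, ANO1 to -0.12, -0.54 and -0.23, and MYC to -0.013, -0.33 and -0.094. With 1 total, the interactions of CCND1, HEXIM1 and BRD2 were -0.28, -0.25 and -0.39, and without MIR1244 that of BRD2 was -0.083. The interaction of ETV1 was 0.081 without combination replicate 1 and ranged from -0.247 to 0.081. The rescaling itself lowers the shift common to all genes, and the cause was not tested otherwise. Over 109 genes and their alternatives, 1469 of 1623 values kept direction and side of the threshold. Fewer did where the scale was changed: 64 of the 109 genes after ratio rescaling, 81 with 1 total and 76 with that total without MIR1244. After ratio rescaling 42 lost their call.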

Other observations

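Genes of energy metabolism and the lysosome followed the general shift. Of 34 oxidative phosphorylation genes 2 fell, among them that of the complex I subunit NDUFB10 (-1.20 ± 0.20), with a median of -0.41 (0.27 and 0 falls after ratio rescaling), and of 21 glycolysis genes 2 fell, the lactate exporter SLC16A3 from 10.4, 11.2 and 10.7 to 0.681, 1.14 and 0.482 FPKM (-2.75 ± 0.17) and the isomerase gene GPI (-1.01 ± 0.21, -0.35 ratio rescaled). Of 27 autophagy and lysosome genes 2 fell, the lysosomal transcription factor gene TFEB (-1.28 ± 0.13) and UVRAG (-1.03 ± 0.18, -0.44 ratio rescaled). The medians of the glycolysis and lysosome lists, -0.45 and -0.50, turned to 0.24 and 0.17 after ratio rescaling. Without combination replicate 2 the 3 counts were 4, 5 and 5. The glycolysis count was 1 without imatinib replicate 1 and without combination replicate 1 or 3, and the lysosome count was 1 without imatinib replicate 2 or combination replicate 1.

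Of 20 tested ATF4 and amino acid response genes 2 fell, NUPR1 and the pseudokinase gene TRIB3, the latter from 8.26, 8.37 and 8.85 to 1.52, 2.62 and 1.8 FPKM (-1.69 ± 0.16), and 6 fell without combination replicate 2. After ratio rescaling 3 of them fell and 3 rose, and the median turned from -0.43 to 0.03. Of 22 tested p53 targets 3 fell and 1 rose, with the death receptor gene FAS at -1.40 ± 0.17 and MDM2 at -1.06 ± 0.17 (-0.84 and -0.50 ratio rescaled, neither called). Their median turned from -0.27 to 0.30 after ratio rescaling, with 2 rises and 0 falls. The count of p53 targets was 1 fall without combination replicate 1 and 0 rises without replicate 2. Of 12 tested genes of the MYC, MAX and MXD network 1 fell, the MAX partner MNT at -1.03 ± 0.18 (-0.50 ratio rescaled), and the count was 0 without imatinib replicate 2 and without combination replicate 1 or 3.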
